A study of Mus musculus with 12 samples.

Results

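The 9 genes described here encode ligands of the transforming growth factor beta (TGF-beta) and activin family, their receptors, and one matrix protein that TGF-beta induces. They are Tgfb1, Tgfb2, Tgfb3, Inhba, Inhbb, Gdf15, Tgfbr1, Tgfbr2 and Tgfbi, 9 of 22911 genes with a symbol on the array. They were chosen by symbol, through the RefSeq transcript each probe names, and 12 probes matched: 2 each for Tgfb1, Tgfb2 and Tgfbr1 and 1 for each of the other 6. Where a gene had several probes, the brightest stood for it. In the RefSeq gene table the members lie on chromosome 7 (Tgfb1), 1 (Tgfb2 and Inhbb), 12 (Tgfb3), 13 (Inhba and Tgfbi), 8 (Gdf15), 4 (Tgfbr1) and 9 (Tgfbr2).

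RNA came from macrophages of the abdominal cavity of C57/BL6 mice, cultured in DMEM with 10% FBS and given for 4 h either LPS, an outer-membrane lipid of Gram-negative bacteria, at 100 ng/ml, or PBS. The 4 groups of 3 one-colour Agilent arrays each were GPR15 KO cells with LPS (KO LPS), GPR15 KO cells with PBS (KO PBS), wild type cells with LPS (WT LPS) and wild type cells with PBS (WT PBS). GPR15 is a G protein-coupled receptor. The labels give no age, sex, KO allele or number of mice, and do not say whether replicates came from separate mice, so p-values measure the spread between these arrays, which may be technical.

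TGF-beta proteins are stored outside the cell in a latent complex and, once released, bind Tgfbr2, the type II receptor, which recruits Tgfbr1, the type I receptor, and through it activates Smad2 and Smad3. Activins are dimers of the chains encoded by Inhba and Inhbb. They use other type I and type II receptors but the same Smads, and follistatin, the product of Fst, captures them. Gdf15 is a distant member of the family that rises in many cells under stress and signals through the receptor Gfral in the brainstem. In the mouse peritoneal cavity Tgfb2 is known as a gene of the resident large macrophages, and activin A, the dimer of the Inhba chain, is known as a product of macrophages given LPS.

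Promoter sequences are shown for 3 ligand genes on which the LPS results below turn, Inhba and Inhbb, which rose, and Tgfb2, which fell. Each runs 5′ to 3′ on the gene's own strand, from 250 bases before the annotated start site to 50 after it, and comes from RefSeq, assembly GRCm38.p6. The windows are chr13:16011601-16011900 on the plus strand for Inhba, chr1:119422199-119422498 on the minus strand for Inhbb, and chr1:186705940-186706239 on the minus strand for Tgfb2. Capitals mark TATAAA, the TATA box.
Inhba: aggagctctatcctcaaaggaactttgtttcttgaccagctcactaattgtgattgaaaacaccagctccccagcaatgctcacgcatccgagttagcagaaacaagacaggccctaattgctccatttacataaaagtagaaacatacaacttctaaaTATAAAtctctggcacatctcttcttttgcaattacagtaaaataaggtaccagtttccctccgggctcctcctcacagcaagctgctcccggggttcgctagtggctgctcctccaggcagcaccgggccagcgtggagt
Inhbb: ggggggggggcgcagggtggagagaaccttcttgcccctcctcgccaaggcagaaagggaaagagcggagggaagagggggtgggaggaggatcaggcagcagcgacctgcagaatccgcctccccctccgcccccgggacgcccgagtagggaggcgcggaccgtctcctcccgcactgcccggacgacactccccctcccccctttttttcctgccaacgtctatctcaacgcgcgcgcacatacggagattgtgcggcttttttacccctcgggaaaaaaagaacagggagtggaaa
Tgfb2: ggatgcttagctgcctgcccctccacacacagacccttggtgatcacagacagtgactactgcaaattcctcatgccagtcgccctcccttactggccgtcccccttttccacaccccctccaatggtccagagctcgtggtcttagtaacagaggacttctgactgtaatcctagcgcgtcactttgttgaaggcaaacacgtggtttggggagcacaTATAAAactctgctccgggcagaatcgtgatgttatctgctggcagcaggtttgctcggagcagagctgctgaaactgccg

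The windows were searched on both strands for 9 motifs. TATAAA occurred in those of Inhba, from -91 to -86 of the start site, and Tgfb2, from -31 to -26, and in 13.6% of the 32851 windows of the same length in the table. The GC box GGGCGG occurred in the window of Inhbb and in 35.7% of all windows. TGACG, the core of the cyclic AMP response element, occurred in the window of Tgfb2 and in 20.8% of all windows. No match was found in these 3 windows for TGACGTCA, the whole cyclic AMP response element, which includes that core (1.79% of all windows), for the AP-1 site TGANTCA (7.81%), the GATA site GATAAG (7.44%), the Smad palindrome GTCTAGAC (0.213%), the ATF4 and C/EBP site TGATGNAA (3.97%) or the NF-kB site (8.46%). A match describes letters only. Of the 9 members, Tgfb3 is not shown or searched. The windows of Tgfb1, Gdf15, Tgfbr1, Tgfbr2 and Tgfbi were searched too and are not shown. That of Tgfb1 had a match to the NF-kB site, from -140 to -131. The GC box occurred in windows of Tgfb1, Tgfbr1 and Tgfbi.

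Levels are the log2 of the processed spot signal minus the log2 of the array's 75th percentile, which lay between 469.6 and 574.1, so a level of 0 equals that percentile. Differences are on the same log2 scale and come from one limma fit over 12 arrays, with standard errors after ± and adjusted p-values over 13283 genes. A difference was called at an adjusted p below 0.05. Of the 9 genes, 8 were well above background on all 12 arrays. Inhbb was so on 8, and passed the filter through the LPS arrays. Levels of different probes are not compared with each other.

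Several features of the arrays bear on the results. The 12 arrays came from 2 slides. Every WT array was on slide 1, together with KO PBS replicates 1 and 2, while KO PBS replicate 3 was on slide 2 with the KO LPS arrays, so KO LPS and WT LPS arrays never shared a slide. Gpr15 itself did not rise well above background on any array (0 of 12), so the KO label could not be checked. Xist was well above background on 0 of 6 KO and 6 of 6 WT arrays, and the Y-linked genes Ddx3y, Kdm5d and Uty on 6 of 6 KO and 0 of 6 WT arrays, so genotype and sex of the mice cannot be told apart. All 10 macrophage markers and all 13 large peritoneal macrophage markers were well above background in every group. B-cell markers were present too (10 of 10), as were mast-cell markers, and their summed levels are given beside the results they move with; such a sum adds up the markers' signals, each divided by the array's 75th percentile. In RNA from a whole culture, fewer cells of a type and less RNA per cell cannot be told apart. WT PBS replicate 3 stood apart from the other WT PBS arrays for several genes described below. Values without it are given for Inhba, Inhbb, Gdf15 and Tgfbr1. For other genes, among them Eng, Fst and Csf3, no such values are given, and their WT differences include that array.

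LPS raised the activin chains and Gdf15 and lowered Tgfb2 and Tgfb3 in both genotypes. In KO cells 7 of the 9 genes were called, 3 higher and 4 lower, where 67% of all genes tested were called, 35.1% higher and 32% lower; LPS and PBS arrays did not overlap for 7 of the 9 and for 72.1% of all genes. In WT cells 5 were called, 3 higher and 2 lower, where 64.7% of all genes were called, 33.7% higher and 31% lower; the arrays did not overlap for 6 of the 9 and for 69.4% of all genes. With the replicate number as a block, 7 were called in WT cells too, 3 higher and 4 lower, with Tgfbr2 and Tgfbi added, among 9356 genes called in all. The 3 higher and 2 lower in WT were also called in KO. Most genes responded to LPS, and the share among these 9 genes was near that background, so the sizes say more than the count. Called differences of at least 2-fold made up 14.4% of all genes in KO and 15.6% in WT.

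**Figure D1:**
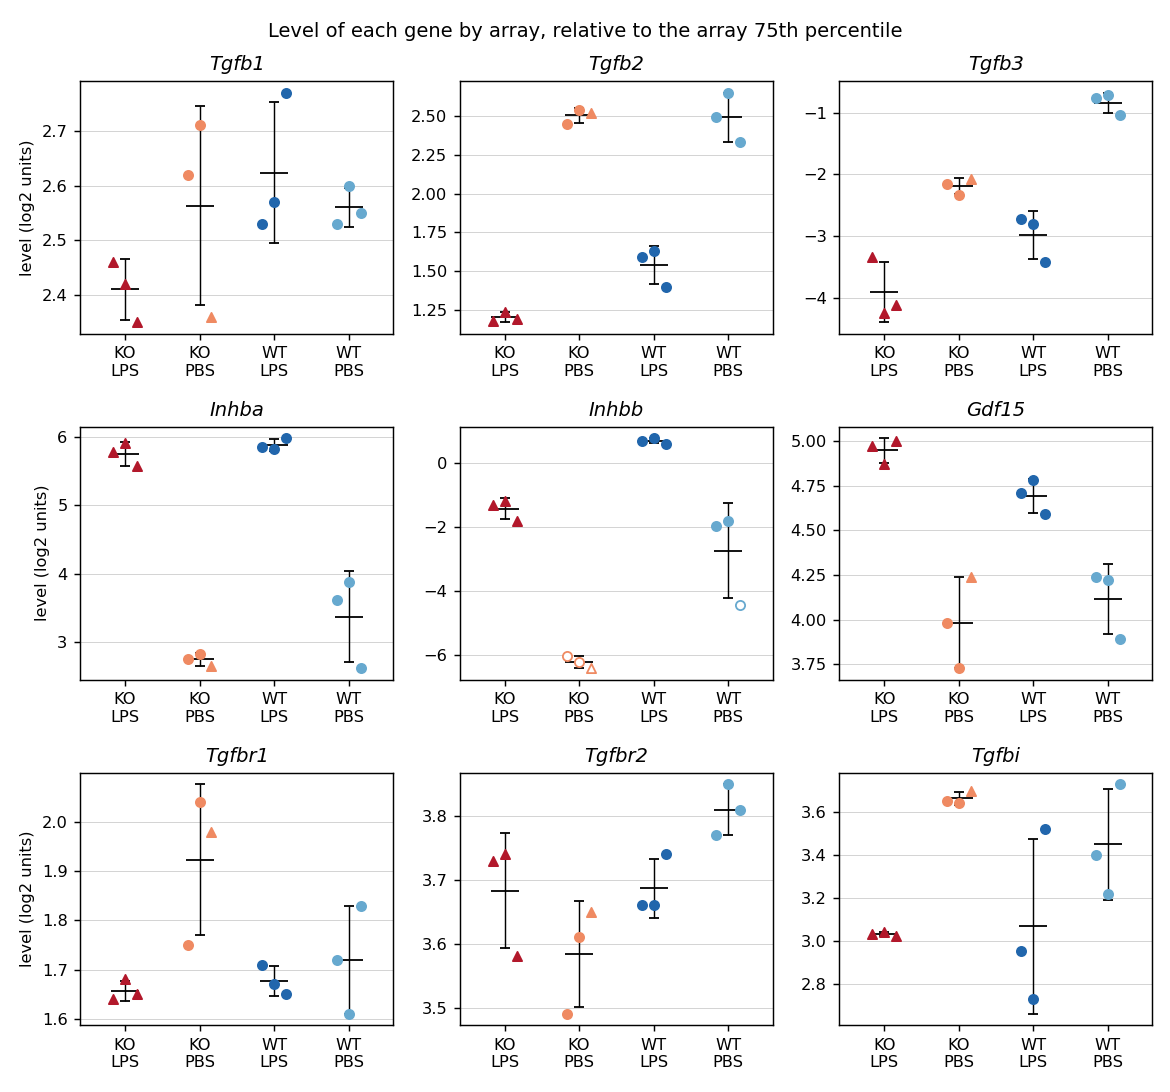
Level of each of the 9 genes on each array (log2 units relative to the array's 75th percentile; each panel has its own axis), by group from KO LPS to WT PBS. Points are arrays, triangles lie on slide 2, open symbols were not well above background, and black bars are means ± SD of 3 arrays. Inhba stands at 5.57 to 5.98 on the 6 LPS arrays and at 2.62 to 3.88 on the 6 PBS arrays, whereas the panel of Tgfb1 spans only 2.35 to 2.77.

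Inhba, the activin A chain, was among the genes with large responses. Its levels were 5.78, 5.91 and 5.57 on KO LPS arrays, 2.76, 2.83 and 2.65 on KO PBS arrays, 5.85, 5.82 and 5.98 on WT LPS arrays and 3.61, 3.88 and 2.62 on WT PBS arrays. All LPS arrays lay above all PBS arrays, the LPS arrays of both genotypes overlapped, and WT PBS replicate 3 lay at the level of the KO PBS arrays, below the other WT PBS arrays. LPS raised Inhba 8.02-fold in KO cells (3.00 ± 0.24, adjusted p = 5.08e-07) and 5.71-fold in WT cells (2.51 ± 0.24, adjusted p = 1.89e-06). Without WT PBS replicate 3 the WT difference was 2.14.

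Inhbb, the activin B chain, followed Inhba upward with LPS, and was lower in KO than in WT cells both in PBS and after LPS. Its levels were -1.31, -1.17 and -1.80 on KO LPS arrays and -6.03, -6.22 and -6.42 on KO PBS arrays, where no array was well above background. They were 0.71, 0.78 and 0.62 on WT LPS arrays and -1.95, -1.80 and -4.45 on WT PBS arrays, the last of these not well above background. The WT LPS arrays were the highest and the KO PBS arrays the lowest; between them the KO LPS and WT PBS groups met at -1.80. Signals were 196, 225 and 140 on KO LPS arrays, 7.43, 6.86 and 6.72 on KO PBS arrays, 770, 809 and 753 on WT LPS arrays and 137, 149 and 24.5 on WT PBS arrays.

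LPS raised Inhbb at least 6.73-fold in KO cells, with the KO PBS arrays set to their detection limit, the lowest signal that was still well above background (fitted difference 4.80 ± 0.53, adjusted p = 7.67e-06). In WT cells the rise was 10.9-fold (3.44 ± 0.53, adjusted p = 0.000109), with 2 of 3 WT PBS arrays well above background, and without WT PBS replicate 3 it was 2.58 on the log2 scale. These dim signals depended on the background correction: with normexp in its place the differences were 1.90 in KO and 2.53 in WT cells, both called. A fold given as at least a value is a lower bound. Inhbb passed the filter only through the LPS groups, where it was higher. Its LPS p-values, and its place among the genes called higher, are therefore no separate support for a rise.

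Gdf15, the stress-induced member, rose less. Its levels were 4.97, 4.87 and 5 on KO LPS arrays, 3.98, 3.73 and 4.24 on KO PBS arrays, 4.71, 4.78 and 4.59 on WT LPS arrays and 4.24, 4.22 and 3.89 on WT PBS arrays. Every LPS array lay above every PBS array. LPS raised it 1.95-fold in KO cells (0.96 ± 0.12, adjusted p = 2.41e-05) and 1.49-fold in WT cells (0.58 ± 0.12, adjusted p = 0.0012). Without WT PBS replicate 3, the lowest of its group, the WT difference was 0.46 (adjusted p = 0.00448). KO PBS replicate 3, on the slide of the KO LPS arrays, was the highest of its group, and with the slide as a term the KO difference was 0.70 (adjusted p = 0.00171).

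Tgfb2, the isoform of resident large peritoneal macrophages, fell with LPS. Its levels were 1.18, 1.24 and 1.19 on KO LPS arrays, 2.45, 2.54 and 2.52 on KO PBS arrays, 1.59, 1.63 and 1.40 on WT LPS arrays and 2.49, 2.65 and 2.33 on WT PBS arrays. The PBS arrays of both genotypes overlapped and lay above all LPS arrays, and the KO LPS arrays lay below the WT LPS arrays. The fall was 2.46-fold in KO cells (-1.30 ± 0.08, adjusted p = 5.77e-08) and 1.93-fold in WT cells (-0.95 ± 0.08, adjusted p = 6.33e-07). The second Tgfb2 probe had differences of -1.57 in KO and -1.34 in WT cells. With LPS 32% of all genes were called lower and 35.1% higher in KO cells, and 31% and 33.7% in WT cells. Of the 13 large peritoneal macrophage markers, 7 were lower and 4 higher with LPS in KO cells, and 7 lower and 3 higher in WT cells. Their summed level was 742 to 753 on KO LPS, 733 to 764 on KO PBS, 682 to 734 on WT LPS and 651 to 745 on WT PBS arrays. Such a sum rests mostly on its brightest markers and can hide opposite changes. Thbs1, the brightest, had mean levels of 8.23 on KO LPS, 8.02 on KO PBS, 8.26 on WT LPS and 8.09 on WT PBS arrays. Those of Gata6 were 1.65, 2.44, 1.75 and 2.40 in the same order.

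Tgfb3 was dim on the arrays and fell with LPS. Its levels were -3.34, -4.25 and -4.12 on KO LPS arrays, -2.15, -2.33 and -2.08 on KO PBS arrays, -2.72, -2.80 and -3.42 on WT LPS arrays and -0.77, -0.72 and -1.03 on WT PBS arrays. The order was WT PBS, KO PBS, WT LPS, KO LPS, and only the WT LPS and KO LPS arrays overlapped. The fall was 3.28-fold in KO cells (-1.72 ± 0.24, adjusted p = 5.38e-05) and 4.42-fold in WT cells (-2.14 ± 0.24, adjusted p = 7.41e-06). With normexp background correction the differences were -0.80 in KO and -1.46 in WT cells, both called.

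B-cell markers moved with Tgfb3. Their summed level was 58.7 to 60.1 on KO LPS arrays, 113 to 119 on KO PBS arrays, 72.7 to 86.7 on WT LPS arrays and 135 to 172 on WT PBS arrays, the same order of groups as for Tgfb3. Of the 10 B-cell markers, LPS lowered 7 and raised 1 in KO cells, and lowered 6 and raised 1 in WT cells. Of all genes it lowered 32% and raised 35.1% in KO cells, and lowered 31% and raised 33.7% in WT cells. Within the WT PBS group the array with the highest B-cell sum, replicate 3, had the lowest Tgfb3. The part of B cells in the Tgfb3 result was not tested.

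Tgfb1, the main isoform of most leukocytes, was called in none of the comparisons as fitted here. Its levels were 2.46, 2.42 and 2.35 on KO LPS arrays, 2.62, 2.71 and 2.36 on KO PBS arrays, 2.53, 2.57 and 2.77 on WT LPS arrays and 2.53, 2.60 and 2.55 on WT PBS arrays. The KO LPS arrays lay below all WT arrays and overlapped KO PBS replicate 3, and the other groups overlapped each other. The LPS difference was -0.15 ± 0.09 in KO cells (95% interval -0.34 to 0.03, adjusted p = 0.132; -0.25 without KO PBS replicate 3, adjusted p = 0.0071, and -0.23 with quantile normalization, adjusted p = 0.0308) and 0.06 ± 0.09 in WT cells (-0.13 to 0.25, adjusted p = 0.56). The second Tgfb1 probe was not called either.

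The receptors changed little. Tgfbr1 had levels of 1.64, 1.68 and 1.65 on KO LPS arrays, 1.75, 2.04 and 1.98 on KO PBS arrays, 1.71, 1.67 and 1.65 on WT LPS arrays and 1.72, 1.61 and 1.83 on WT PBS arrays. The KO PBS arrays lay above the KO LPS arrays, and the WT groups overlapped. LPS lowered Tgfbr1 in KO cells (-0.27 ± 0.07, adjusted p = 0.00713), and the second probe, at -0.39 ± 0.21, was not called there (adjusted p = 0.12). In WT cells the difference was -0.04 ± 0.07 (adjusted p = 0.641).

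Tgfbr2 had levels of 3.73, 3.74 and 3.58 on KO LPS arrays, 3.49, 3.61 and 3.65 on KO PBS arrays, 3.66, 3.66 and 3.74 on WT LPS arrays and 3.77, 3.85 and 3.81 on WT PBS arrays. The WT PBS arrays were the highest and the KO groups overlapped. LPS gave a difference of 0.10 ± 0.06 in KO cells (adjusted p = 0.155; 0.15 without KO LPS replicate 3, adjusted p = 0.0472) and -0.12 ± 0.06 in WT cells (adjusted p = 0.0868), and with the replicate number as a block the WT difference was called (adjusted p = 0.0353).

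Tgfbi, a secreted matrix protein that TGF-beta induces in many cells, was lower with LPS in KO cells. Its levels were 3.03, 3.04 and 3.02 on KO LPS arrays, 3.65, 3.64 and 3.70 on KO PBS arrays, 2.95, 2.73 and 3.52 on WT LPS arrays and 3.40, 3.22 and 3.73 on WT PBS arrays. The KO groups did not overlap, and WT LPS replicate 3 lay among the WT PBS arrays. The difference was -0.63 ± 0.17 in KO cells (adjusted p = 0.00556) and -0.38 ± 0.17 in WT cells (adjusted p = 0.064). Each WT LPS array lay below the WT PBS array of the same number, and with the replicate number as a block the WT difference was called (adjusted p = 0.00193). Without WT LPS replicate 3 it was -0.61 (adjusted p = 0.000856), and without WT PBS replicate 2 it was -0.50 (adjusted p = 0.0311).

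**Figure D2:**
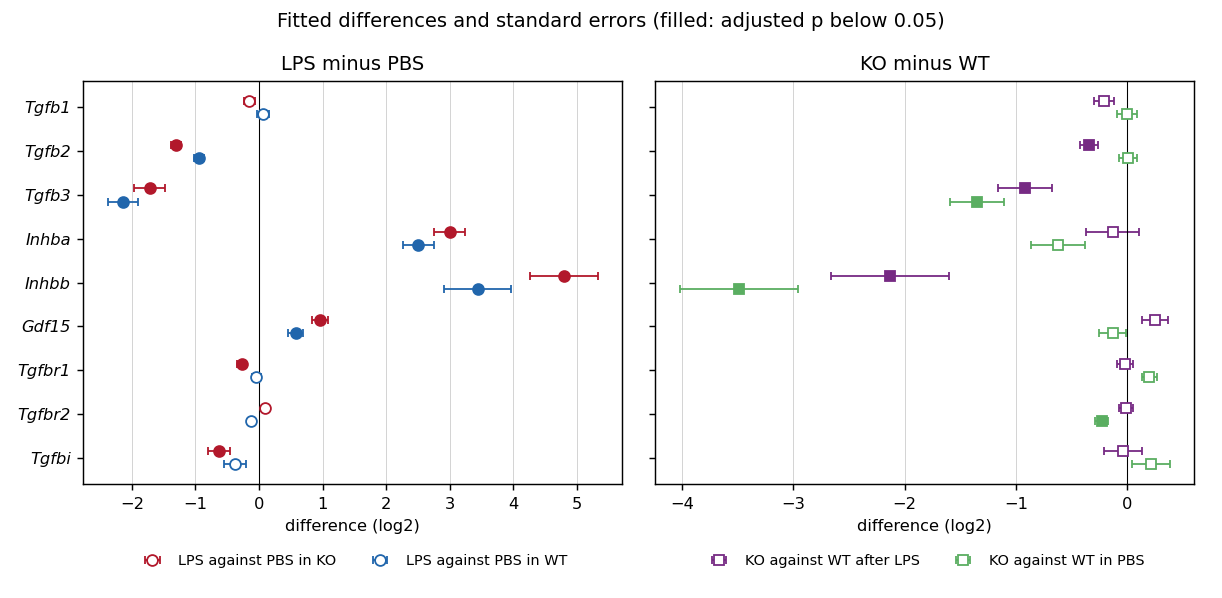
Fitted log2 differences with standard errors for the 9 genes, LPS minus PBS on the left and KO minus WT on the right, where filled symbols mark an adjusted p below 0.05. Inhba and Inhbb have the largest LPS differences among the 9 genes in both genotypes, and Inhbb (-3.49 in PBS) and Tgfb3 (-1.35 in PBS) the largest between genotypes.

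Between genotypes without LPS, 3 of the 9 genes were called, all lower in KO, where 14.1% of all genes were called, 8.06% higher and 6.05% lower. The share of higher genes among those called was 57.1% here and 43.4% when arrays were scaled to their median. Inhbb was lower in KO cells by a factor of at least 2.72 (fitted difference -3.49 ± 0.53, adjusted p = 0.00147), and Tgfb3 was 2.54-fold lower (-1.35 ± 0.24, adjusted p = 0.00372). With normexp the difference of Inhbb was -1.11, and without WT PBS replicate 3 it was -4.35, called in both. With the replicate number as a block Inhbb was not called (adjusted p = 0.0638). On slide 1 alone, which holds 2 of the KO PBS arrays, the differences were -3.39 for Inhbb (adjusted p = 0.0262) and -1.40 for Tgfb3 (adjusted p = 0.00927).

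Tgfbr2 was the third, at -0.23 ± 0.06 (adjusted p = 0.0244). It was not called when only the arrays of these groups were fitted (adjusted p = 0.0813), nor without WT PBS replicate 1 (0.0521), WT PBS replicate 2 (0.0904) or KO PBS replicate 1 (0.0854). Inhba was not called with all arrays (-0.62 ± 0.24, adjusted p = 0.105), and without WT PBS replicate 3 it was (-1, adjusted p = 0.000119). Tgfbr1, at 0.20 ± 0.07 (adjusted p = 0.0914), was called without that array (0.26, adjusted p = 0.0378) and without KO PBS replicate 1 (0.29, adjusted p = 0.022). Tgfb1 (0 ± 0.09), Tgfb2 (0.01 ± 0.08), Gdf15 (-0.13 ± 0.12) and Tgfbi (0.21 ± 0.17) were not called.

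Some markers of other cells also differed between genotypes in PBS, where 6.05% of all genes were called lower and 8.06% higher in KO. Of the B-cell markers 6 of 10 were lower in KO and 0 higher. Of the 8 mast-cell markers only 1 was called lower in KO and 0 higher. Of the 6 neutrophil markers tested, 2 were higher in KO and 0 lower. The mast-cell sum was 188 to 205 on KO LPS arrays, 99.1 to 116 on KO PBS arrays, 241 to 263 on WT LPS arrays and 111 to 150 on WT PBS arrays, where replicate 3 had the 111. Hdc, which macrophages given LPS also make, made up much of this sum. Without it, a choice made after seeing the data, the sum was 75 to 77 on KO LPS, 59 to 67.6 on KO PBS, 86.1 to 106 on WT LPS and 67.8 to 90.3 on WT PBS arrays. Of the 8 mast-cell markers 3 rose and 1 fell with LPS in KO cells, and 3 rose and 2 fell in WT cells. Among all genes 67% were called with LPS in KO cells and 64.7% in WT cells. Hdc rose by 1.44 ± 0.11 in KO and 1.54 ± 0.11 in WT cells, and Cpa3, a mast-cell protease, by 0.55 ± 0.15 in KO and 0.38 ± 0.15 in WT cells, whereas Tpsb2, a mast-cell tryptase, was not called (0.15 ± 0.09 in each). Neutrophil markers had a summed level of 8.01 to 10.1 on KO LPS, 6.12 to 9.24 on KO PBS, 4.21 to 10.3 on WT LPS and 3.29 to 4.16 on WT PBS arrays. The part of these cells in the results was not tested. In each group 8 of the 12 mesothelial and fibroblast markers were well above background on no array, among them Wt1, Col1a1 and Pdgfra.

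After LPS, 3 of the 9 genes were called between genotypes, all lower in KO, where 39.5% of all genes were called, 20% higher and 19.5% lower; arrays of the 2 genotypes did not overlap for 4 of the 9 and for 58.4% of all genes. Among called genes the share of higher ones was 50.6%, and 30.2% with arrays scaled to their median, which moved the median difference of all genes to -0.117. Inhbb was 4.39-fold lower in KO cells (-2.13 ± 0.53, adjusted p = 0.0086), Tgfb3 had a difference of -0.92 ± 0.24 (adjusted p = 0.0108), or -0.42 with normexp, and Tgfb2 one of -0.34 ± 0.08 (adjusted p = 0.00657). Tgfb3 and Inhbb were thus lower in KO both in PBS and after LPS. For Tgfb2 the second probe was not called (-0.24 ± 0.15, adjusted p = 0.206).

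These groups lay on different slides. With the slide as a term, which then rests on KO PBS replicate 3, the differences were -1.84 ± 1.01 for Inhbb, -1.08 ± 0.45 for Tgfb3 and -0.37 ± 0.15 for Tgfb2 (adjusted p = 0.319, 0.185 and 0.168), and none of the 9 genes was called. The number of all genes called was then 776, or 5.84%, against 5242. Inhba differed by -0.13 ± 0.24 (95% interval -0.65 to 0.39, adjusted p = 0.69). Gdf15 was at 0.25 ± 0.12 (adjusted p = 0.119) with KO LPS arrays all above WT LPS arrays, and at -0.13 with the slide as a term. Tgfb1 was at -0.21 ± 0.09 (adjusted p = 0.0678), -0.32 with arrays scaled to their median (adjusted p = 0.0217), -0.27 with normexp (adjusted p = 0.032) and 0.09 with the slide as a term (adjusted p = 0.68). Tgfbr1 (-0.02 ± 0.07), Tgfbr2 (-0.01 ± 0.06) and Tgfbi (-0.04 ± 0.17) were not called.

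Whether the LPS effect differed between genotypes was tested as an interaction, the KO effect minus the WT effect. None of the 9 genes was called by limma, where 4.31% of all genes were, 0.926% higher and 3.39% lower. At an unadjusted p below 0.05 stood 3 of the 9 and 2746 of the 13283 genes tested. The 3 were Tgfb2 (-0.35 ± 0.11, adjusted p = 0.109), Tgfbr2 (0.22 ± 0.08, adjusted p = 0.164) and Gdf15 (0.38 ± 0.17, adjusted p = 0.23). Tgfb2 was called without WT PBS replicate 2 (-0.43, adjusted p = 0.045) or WT LPS replicate 3 (-0.42, adjusted p = 0.0438). Without KO PBS replicate 3, Tgfb1 (-0.32, adjusted p = 0.0361), Gdf15 (0.51, adjusted p = 0.0343) and Tgfbr2 (0.25, adjusted p = 0.0477) were called. WT PBS replicate 3 set the value for the activin chains: Inhba was at 0.49 ± 0.34 with it (adjusted p = 0.432) and 0.87 ± 0.14 without it (adjusted p = 0.00306), and Inhbb at 1.36 ± 0.75 with it (adjusted p = 0.322) and 2.21 ± 0.24 without it (adjusted p = 0.000239). For Inhbb the KO PBS arrays were at background, and with normexp correction the interaction was -0.63.

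Around these genes, 7 lists of family and pathway genes were examined, 121 genes of which 88 were tested and 7 stand in 2 lists. With LPS 63 of the 88 (71.6%) were called in KO cells, 49 higher and 14 lower. Of all genes 67% were called there, 35.1% higher and 32% lower. In WT cells 53 (60.2%) were called, 40 higher and 13 lower. Of all genes 64.7% were called there, 33.7% higher and 31% lower. The share called was near the background in both genotypes, and most calls were upward. These shares of all genes are also the background for the LPS counts of each list below. In KO cells 50 were called once the slide was a term, 38 higher and 12 lower, where 53% of all genes were.

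**Figure D3:**
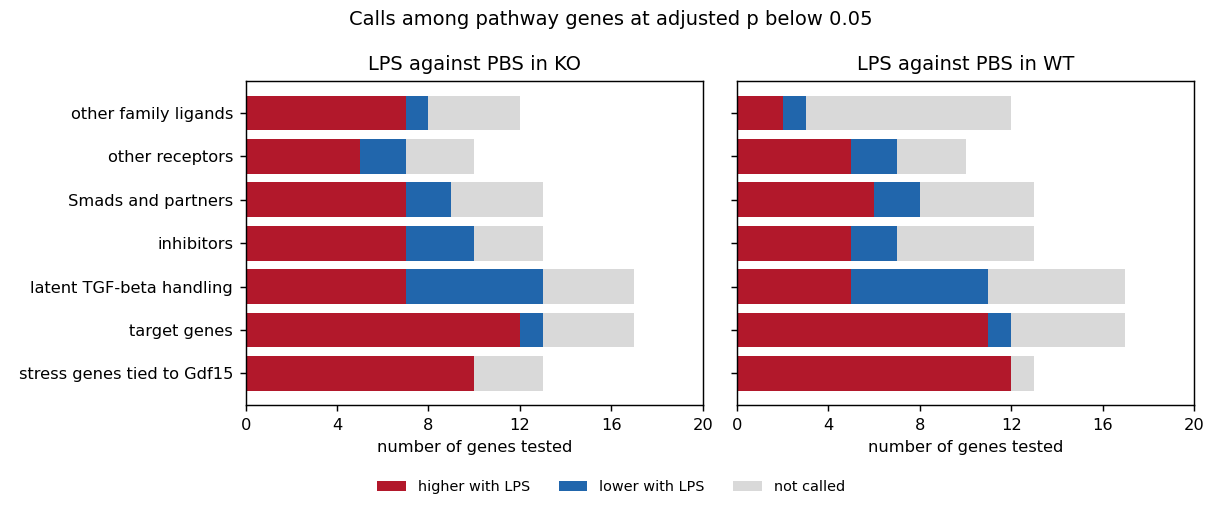
Number of genes called higher with LPS, called lower, or not called at an adjusted p of 0.05 among those tested in 7 lists, in KO cells on the left and WT cells on the right. Target genes (12 of 17 higher in KO, 11 of 17 in WT) and stress genes (10 of 13 and 12 of 13) have the most upward calls. Of all genes tested, 35.1% were called higher in KO and 33.7% in WT cells.

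Of the other ligands of the family 12 of 28 were tested. In KO cells 7 were higher with LPS and 1 lower (median 0.64, against 0.04 for all genes), and in WT cells 2 were higher and 1 lower (median 0.27, against 0.03). With the slide as a term the KO counts were 1 higher and 1 lower. Gdf9, an oocyte growth factor in its known role, rose in both, by 0.59 ± 0.08 in KO and 0.82 ± 0.08 in WT cells. Bmp2, a bone morphogenetic protein, fell in KO cells (-0.72 ± 0.12, adjusted p = 0.000263) and was not called in WT cells (-0.26 ± 0.12, adjusted p = 0.0791). Gdf3 was higher in KO than in WT cells after LPS by 1.08 ± 0.17, and by 0.34 with the slide as a term, where it was not called (adjusted p = 0.267). Inhbe, another activin chain, was well above background on the 4 arrays of slide 2, all KO LPS arrays and KO PBS replicate 3, and on none of slide 1. Inhbe passed the filter through the KO LPS arrays alone, where it was highest, so its p-value is no separate support for a difference. The fitted KO minus WT difference after LPS was 1.16 ± 0.28 (adjusted p = 0.00755). With the WT LPS arrays not well above background, this is not a measured fold. With the slide as a term Inhbe was not called (adjusted p = 0.37). Inha, whose product joins activin chains to form inhibins, was well above background on 1 of 12 arrays and was not tested.

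Among the other receptors and co-receptors 5 of 10 were higher and 2 lower with LPS in each genotype (median 0.23 in KO and 0.17 in WT cells). Eng, which encodes the co-receptor endoglin, had levels of 1.99, 1.91 and 1.87 on KO LPS arrays, 0.25, 0.18 and -0.13 on KO PBS arrays, 2.65, 2.75 and 2.24 on WT LPS arrays and 0.63, 0.77 and -0.07 on WT PBS arrays. It rose by 1.82 ± 0.20 in KO and 2.11 ± 0.20 in WT cells, and its LPS level was lower in KO (-0.63 ± 0.20, adjusted p = 0.0256), at -0.28 with the slide as a term (adjusted p = 0.686). Acvr1b, the type I receptor of activin, rose by 0.79 ± 0.25 in KO and 1.22 ± 0.25 in WT cells. Its type II partners differed: Acvr2b fell in both (-0.43 ± 0.08 in KO, -0.29 ± 0.08 in WT), and Acvr2a was not called for LPS in either. Acvrl1, a type I receptor of endothelial cells, fell in both (-0.61 ± 0.08 in KO, -0.59 ± 0.08 in WT), Tgfbr3 was not called, Amhr2, the receptor of anti-Müllerian hormone, which passed the filter through the WT LPS arrays alone, rose at least 2.24-fold in WT cells over PBS arrays at background and was well above background on 2 of 3 KO LPS arrays, and Gfral was well above background on no array.

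Of 13 Smad and partner genes tested, 7 were higher and 2 lower with LPS in KO cells (median 0.25), and 6 higher and 2 lower in WT cells (median 0.16). With the slide as a term the KO counts were 6 higher and 0 lower. Smad2, which carries the signal of TGF-beta and activin, rose by 0.25 ± 0.06 in KO and 0.44 ± 0.06 in WT cells, and Smad4, the partner it shares with the other Smads, by 0.32 ± 0.04 in KO and 0.24 ± 0.04 in WT cells. Tab2, an adaptor of the kinase Map3k7, rose by 0.45 ± 0.04 in KO and 0.53 ± 0.04 in WT cells, and Smad5, which serves bone morphogenetic proteins, by 0.33 ± 0.04 in KO and 0.35 ± 0.04 in WT cells. Smad3 was not called for LPS and was lower in KO in PBS (-0.53 ± 0.16, adjusted p = 0.0438), at -0.54 with the slide as a term (adjusted p = 0.0774). The inhibitory Smad7, itself a target of the pathway, had levels of 0.60, 0.44 and 0.57 on KO LPS arrays, -0.95, -0.67 and -0.55 on KO PBS arrays, 0.08, 0.03 and 0.31 on WT LPS arrays and -0.69, -0.68 and -0.48 on WT PBS arrays. It rose by 1.26 ± 0.11 in KO and 0.76 ± 0.11 in WT cells. Its KO minus WT difference after LPS was 0.40 ± 0.11 (adjusted p = 0.0142), and 0.14 with the slide as a term (adjusted p = 0.699).

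**Figure D4:**
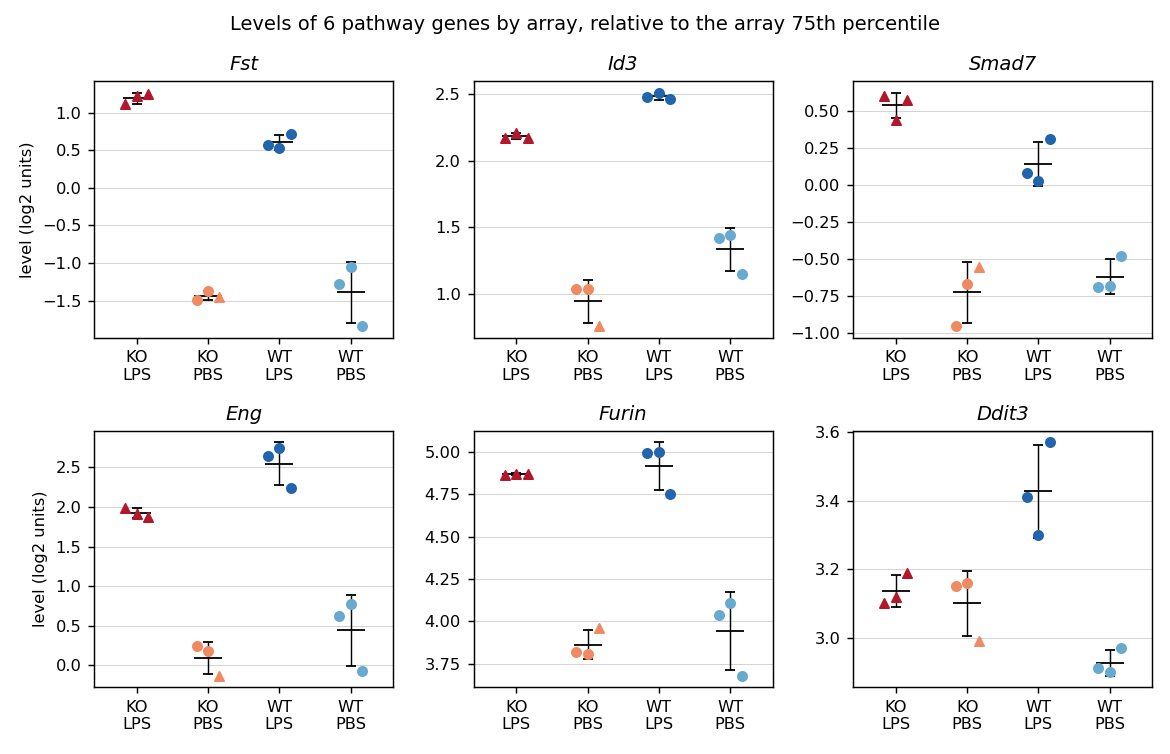
Levels on each array of 6 pathway genes (log2 units relative to the array's 75th percentile; each panel has its own axis), with symbols as in the plot of the 9 genes. Fst, Id3, Smad7, Eng and Furin are higher on LPS than on PBS arrays in both genotypes, and Ddit3 stands at 3.30 to 3.57 on WT LPS arrays against 2.90 to 2.97 on WT PBS arrays, and overlaps between the KO groups.

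Inhibitors of the pathway were called higher in 7 and lower in 3 of 13 genes with LPS in KO cells (median 0.21), and higher in 5 and lower in 2 in WT cells (median 0.46). Fst, the activin-binding follistatin, had levels of 1.11, 1.22 and 1.25 on KO LPS arrays, -1.49, -1.37 and -1.45 on KO PBS arrays, 0.57, 0.53 and 0.72 on WT LPS arrays and -1.28, -1.06 and -1.84 on WT PBS arrays. The KO LPS arrays lay above the WT LPS arrays, and the PBS groups overlapped. Fst rose with LPS by 2.63 ± 0.15 in KO and 2.00 ± 0.15 in WT cells, where both activin chains rose too. Its KO minus WT difference after LPS was 0.58 ± 0.15 (adjusted p = 0.0107), and 0.60 ± 0.29 with the slide as a term (adjusted p = 0.248).

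Fstl3, a relative of follistatin, rose in KO cells (0.97 ± 0.39, adjusted p = 0.0444), and with the slide as a term it was not called (adjusted p = 0.277). Bambi, a decoy receptor, fell in KO cells (-0.54 ± 0.09) and was not called in WT cells (-0.14 ± 0.09). The repressors Tgif2, Tgif1 and Skil rose in both genotypes: Tgif2 by 1.41 ± 0.08 in KO and 1.71 ± 0.08 in WT cells, Tgif1 by 0.86 ± 0.05 in KO and 1.02 ± 0.05 in WT cells, and Skil by 1.04 ± 0.08 in KO and 1.1 ± 0.08 in WT cells. Fstl1 was well above background in no group as a whole and was not tested.

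Genes for the storage and release of latent TGF-beta moved both ways: 7 of 17 higher and 6 lower in KO cells (median 0.11), and 5 higher and 6 lower in WT cells (median 0.04). Furin, the protease that cuts the precursors, rose by 1.00 ± 0.10 in KO and 0.97 ± 0.10 in WT cells. Plat, the tissue plasminogen activator, was not well above background on PBS arrays and rose at least 8.12-fold in KO and at least 6.92-fold in WT cells, whereas Plau, the urokinase, had differences of -1.81 ± 0.12 in KO and -1.5 ± 0.12 in WT cells, called in both. Itgb8, the chain of an integrin that frees TGF-beta, rose by 2.73 ± 0.20 on the log2 scale in KO cells, where 1 of 3 PBS arrays was well above background. In WT cells it rose at least 4.05-fold, a lower bound given as a fold and not as a log2 difference.

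Of the anchors of latent TGF-beta, Nrros, which holds it on myeloid cells, fell in both genotypes (-0.45 ± 0.05 in KO, -0.34 ± 0.05 in WT). Lrrc32 rose in KO cells (0.85 ± 0.16) and was not called in WT cells (0.05 ± 0.16), and it was lower in KO in PBS (-0.79 ± 0.16, adjusted p = 0.00724). Itgb3, the chain of the vitronectin receptor, was not called for LPS and was lower in KO both in PBS (-0.91 ± 0.09) and after LPS (-0.97 ± 0.09), and with the slide as a term it was at -0.90 in PBS and -0.94 after LPS, called in both. Itgb3 is also a platelet gene. Of the 6 other platelet markers only Pf4 and Ppbp were tested. In PBS both were lower in KO, Pf4 at -0.26 ± 0.07 and Ppbp at -1.07 ± 0.23, and after LPS neither was called. Summed without Itgb3 the 6 stood at 272 to 324 on KO LPS, 236 to 275 on KO PBS, 310 to 325 on WT LPS and 289 to 317 on WT PBS arrays, nearly all of it Pf4. Itga2b, Gp1ba, Gp9 and Gp5 were well above background on no array. The part of platelets in the Itgb3 result was not tested.

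Target genes of TGF-beta and activin were called higher in 12 and lower in 1 of 17 in KO cells (median 0.86), and higher in 11 and lower in 1 in WT cells (median 0.76). Many respond to other signals as well. Of all genes 67% were called in KO cells (35.1% higher) and 64.7% in WT cells (33.7% higher). Id3, a repressor of differentiation factors, rose by 1.24 ± 0.09 in KO and 1.14 ± 0.09 in WT cells, and was lower in KO in PBS (-0.39 ± 0.09, adjusted p = 0.0124). Junb rose by 1.28 ± 0.09 in KO and 1.09 ± 0.09 in WT cells. Between genotypes in PBS 1 target was higher and 3 were lower in KO (14.1% of all genes were called), and with the slide as a term 2 were higher and 1 lower (15.2%). After LPS 1 was higher and 3 were lower (39.5%), and 0 passed once the slide was a term (5.84%).

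Stress genes tied to Gdf15 were called higher in 10 of 13 in KO cells (median 0.55) and 12 of 13 in WT cells (median 0.75). In either genotype 0 were lower. Of all genes 67% were called in KO cells (35.1% higher) and 64.7% in WT cells (33.7% higher). Ddit4 rose by 1.74 ± 0.06 in KO and 1.72 ± 0.06 in WT cells, Ppp1r15a by 1.53 ± 0.06 in KO and 1.33 ± 0.06 in WT cells, and Trib3 by 0.70 ± 0.05 in KO and 0.85 ± 0.05 in WT cells. Chac1 rose by 1.1 ± 0.07 in KO and 1.31 ± 0.07 in WT cells. Ddit3, which encodes CHOP, had levels of 3.10, 3.12 and 3.19 on KO LPS arrays, 3.15, 3.16 and 2.99 on KO PBS arrays, 3.41, 3.30 and 3.57 on WT LPS arrays and 2.91, 2.90 and 2.97 on WT PBS arrays. It rose in WT cells (0.50 ± 0.07, adjusted p = 4.27e-05) and was not called in KO cells (0.04 ± 0.07, adjusted p = 0.651).

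Between genotypes the 88 genes were called about as often as all genes in PBS, 13 (14.8%) with 6 higher and 7 lower in KO, against 14.1%; once the slide was a term the count was also 13, with 9 higher and 4 lower, against 15.2%. After LPS 27 (30.7%) were called, 11 higher and 16 lower, against 39.5% of all genes, and with the slide as a term 3 were. For the interaction 1 of the 88 was called (1.14%, against 4.31% of all genes), and it was Ddit3. With the slide as a term Ddit3 was not called (adjusted p = 0.132), and the 1 gene called was Bmp8a (-0.55 ± 0.11, adjusted p = 0.0273), named after its value was seen.

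Across the 12 arrays, which share the 4 groups and 2 slides, some genes followed the 9 closely. Levels of Inhba correlated with those of Uck2, a uridine kinase, at a Pearson r of 0.996 and of Csf3, the granulocyte colony-stimulating factor, at 0.994. Csf3 rose by 5.87 ± 0.42 in KO and 4.68 ± 0.42 in WT cells, and WT PBS replicate 3 was low for it too, at -1.62 against 0.25 and 0.56 on the other WT PBS arrays. Tgfb2 went with Zfp710 (0.994), the cholesterol exporter Abcg1 (0.992) and the complement receptor C3ar1 (0.992). Inhbb went with Nefh and Crem (0.983 each), Gdf15 with Abca17 (0.985), Tgfb3 with Cdk2 (0.979) and Tgfbi with Kdsr (0.965). For the genes that changed little highest r was 0.94 for Tgfb1 (Atg101 and Fgfrl1), 0.876 for Tgfbr1 (Bloc1s3) and 0.864 for Tgfbr2 (Pnrc1). Among the 9 genes, r over the 12 arrays was 0.897 between Inhba and Inhbb, 0.876 between Tgfb2 and Tgfb3 and -0.912 between Inhba and Tgfb2. These values describe 12 arrays that fall into LPS and PBS groups.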

How the data were processed

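Gene expression was measured in 12 RNA samples, and group and replicate number were taken from the sample titles. Per the file headers, the deposited files hold the intensity of each spot, written by the scanner software Feature Extraction (11.5.1.1 per the submitters' processing notes); the authors deposited processed intensity, already background-corrected, and per the labels' protocols 0.1 µg of total RNA was labelled with Cy3. Between 48.8% and 57.1% of the 59305 non-control spots were well above background, 0 were saturated, and the number of arrays limits the precision.

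Each array was scaled to the 75th percentile of its processed signals before log2. Spots marked as nonuniform or outliers were left out, unless all spots of a probe on an array were marked. Spots of a probe were averaged. Probes were named through their RefSeq transcript in a gene table of assembly GRCm38.p6 (32994 of 56605 probes matched, or 58.3%). Probes had to pass the scanner's background test on the whole of 1 or more groups of 3, and the brightest probe stood for a gene. One mean per group was fitted over 12 arrays with limma (version 3.58.1, in R 4.3.3; eBayes with a mean-variance trend), two-sided, with Benjamini-Hochberg adjustment over 13283 genes in each of 5 comparisons. The steps were tested on simulated data. The members, the pathway and marker lists, and the rule to name up to 4 called genes per list with the smallest p, besides genes that bind a called member, were chosen with earlier results of these data known; Ddit3, Hdc, Cpa3 and Tpsb2 were named after their values were seen.

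Residuals of equal replicate numbers correlated at 0.105, 0.371 and 0.481 for LPS in WT, above 0.1 in each pair, so blocked values are given there. For replicate 1 the equal number was not the best match in WT. For LPS in KO it was the best match for every replicate. The correlations were 0.04, 0.113 and 0.081 for LPS in KO, -0.042, -0.068 and -0.102 for KO against WT in PBS, and 0.017, -0.003 and -0.045 after LPS. Alternatives were 24 other settings of normalization, filter, probe choice, slide, block and arrays left out. The files have no mean signal column, so the normexp alternative (offset 50) used the median signal. Some genes are not reported here.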

Additional observations from a re-analysis of the deposited data

Results flagged for a closer look

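The LPS effect on Ddit3, the gene of the stress factor CHOP, differed between genotypes by the interaction test: the KO effect minus the WT effect was -0.46 ± 0.10 (adjusted p = 0.0179, limma over all genes). With the slide as a term the interaction was -0.35 ± 0.10 (adjusted p = 0.132).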

How the results depend on the processing

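For LPS in WT cells 4 members were called lower with quantile normalization, with normexp and with the replicate block, against 2 as reported; Tgfbr2 and Tgfbi were the added ones. For KO against WT in PBS, 799 genes were called with only the arrays compared, 1087 on slide 1 alone and 216 with the replicate block, against 1874. With that block 1 member was called lower (Tgfb3) in place of 3, with Inhbb at an adjusted p of 0.0638 and Tgfbr2 at 0.143. Leaving out one array at a time gave 917 (without WT PBS replicate 1) to 2579 genes, with 1043 without WT PBS replicate 2, 0 to 1 members higher and 2 to 4 lower. For KO against WT after LPS, 1 member was called higher (Gdf15) with only the arrays compared (adjusted p = 0.0118) and with the replicate block (adjusted p = 0.0367), and with the slide term 776 genes were called, 639 of them among the 5242 called without it, with 0 members lower in place of 3. Tgfb1 was called lower there with array median scaling, with normexp, with only the arrays compared (adjusted p = 0.0337) and without KO PBS replicate 2 or 3. The mean over its probes left Tgfb2 at an adjusted p of 0.0548. For the interaction, leaving out one array gave 360 to 2797 genes, against 573, with 0 to 2 members higher and 0 to 1 lower; 2797 were called without KO PBS replicate 3, 360 without WT PBS replicate 1 and 960 without WT PBS replicate 3. The cause of these shifts was not tested. Requiring signal on all 12 arrays removed Inhbb. The slides alone could not give KO against WT after LPS or the interaction, and slide 2 alone leaves 1 KO PBS array, assumed to vary like the others. Where not named here, the replicate block changed no call of a member. Dim signals limit Inhbb and Tgfb3 most.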
